A study of Homo sapiens with 8 samples.

Results

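FLI1 ChIP-Seq peaks were examined at the promoters of the proteasome subunit genes. The members were the protein-coding genes of GENCODE release 44 on GRCh37 whose symbols begin with PSMA, PSMB, PSMC, PSMD, PSME, PSMF or PSMG, without PSMB8 and PSMB9, and there were 48 of them among 20136 protein-coding genes. For each gene the peak with the highest -log10 q centred within 3 kb of any annotated transcription start site (TSS) was taken, and the gene was called bound when that value was at least 3. The rule for members uses gene symbols only. 2 of the 48, PSMC3IP and PSME3IP1, carry the prefix because their proteins bind a proteasome protein, and are no subunits.

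The study mapped FLI1, an ETS family transcription factor, in 2 established, untreated cell lines of germinal center B-cell (GCB) diffuse large B-cell lymphoma, OCI-Ly1 and VAL. Each line had 2 libraries made with 1 rabbit polyclonal anti-FLI1 antibody, with 4 samples of input DNA beside them, and the labels do not say whether replicates came from separate cultures. OCI-Ly1 replicate 1 held only 37 intervals, 33 of them longer than 1 Mb. Its 1 passing interval, with 2 reads, covered nearly all of chromosome 2 and so lay over PSMD1, PSMD14 and PSME4, and the library was not used, which left OCI-Ly1 with its replicate 2 (OCI-Ly1 rep2) and VAL with both replicates (VAL rep1 and VAL rep2). Passing peaks, those with a -log10 q of at least 3, numbered 5354 in OCI-Ly1 rep2, 973 in VAL rep1 and 6474 in VAL rep2. The weakest of them held an estimated 6, 8 and 6 reads at the summit in the same order, and the read totals of the libraries were not used. The value is the confidence of the authors' peak caller and rises with depth, so it ranks genes within a library and is not an amount to compare between libraries. The median passing peak held an estimated 8, 17 and 8 reads in OCI-Ly1 rep2, VAL rep1 and VAL rep2. OCI-Ly1 rep2 and VAL rep2 are called the larger libraries below for their number of passing peaks alone, not for their depth.

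The proteasome is the protease that degrades ubiquitin-tagged proteins. Its core particle is a barrel of alpha subunits (PSMA genes), which form the gate, and beta subunits (PSMB genes), some of which cut the substrate. The regulatory particle sits on the gate and has a base, with a ring of ATPases (PSMC genes) that unfolds the substrate, and a lid (many of the PSMD genes) that removes the ubiquitin chain. Other members help to assemble the core (PSMG genes) or the base, and the PSME genes and PSMF1 encode alternative caps and an inhibitor of the core. Proteasome inhibitors are in clinical use against plasma cell myeloma and some B-cell lymphomas. ETS factors recognise GGAA, and the longer CCGGAA is a common form of their site in promoters.

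Stretches of reference sequence at the bound promoters that the results turn on are given first, since they show the ETS letters found within 50 bp of the FLI1 summits. Each was placed around the motif and need not hold the summit. They were read from GRCh37, each is 30 bases long, is written 5′ to 3′ on the strand that carries CCGGAA, and has these letters in capitals.
PSMD12, lid, chr17:65362683-65362712, plus strand: tcgtcacccacaCCGGAAgttgcccgcgca
PSMD6, lid, chr3:64009190-64009219, minus strand: gcggagacgggaCCGGAAgccgggccgcag
PSMD14, lid, chr2:162164920-162164949, plus strand: aaactagtgaacCCGGAAgtgcttcgcggc
PSMD7, lid, chr16:74330698-74330727, plus strand: agggctgacgaaCCGGAAgaagaggaactg
PSMD11, lid, chr17:30771470-30771499, minus strand: ggaaacacacacCCGGAAagcccgccctcg
PSMD2, base, chr3:184016923-184016952, minus strand: gcccgcctgcgaCCGGAAacgccggggcga
PSMC1, base, chr14:90722896-90722925, minus strand: gagctgccgctgCCGGAAgttcctccacca
PSMB1, core, chr6:170862394-170862423, minus strand: cttcaggagaagCCGGAAgtggcgtaacgt
PSMG3, core assembly, chr7:1609709-1609738, plus strand: tccgtccaccttCCGGAAgtcagggccgcg
PSME4, alternative cap, chr2:54198171-54198200, minus strand: cttgaggccggtCCGGAAcctctgggcccg
PSMF1, inhibitor, chr20:1099115-1099144, minus strand: ggcccctcaaagCCGGAAgccgggtcttgg
From its middle, the motif lay 4 bp from the VAL rep2 summit at PSMD12, 6 bp at PSMD6, 1 bp at PSMD11, 8 bp at PSMD2, 5 bp at PSMG3, 7 bp at PSME4, 23 bp at PSMC1 and 37 bp at PSMD7. From the OCI-Ly1 rep2 summit it lay 12 bp at PSMF1, 24 bp at PSMB1 and 26 bp at PSMD14. Each distance is for 1 library. PSMD6 and PSMC1 had no CCGGAA within 50 bp of the OCI-Ly1 rep2 summit, and PSMF1 had none within 50 bp of the VAL rep2 summit. The gene with the strongest summit, PSMD4, had no CCGGAA within 50 bp of it. Its stretch is shown because it holds the single GGAA of that window, which is preceded by GC in place of CC, with CGGAA in capitals.
PSMD4, base, chr1:151227106-151227184, plus strand: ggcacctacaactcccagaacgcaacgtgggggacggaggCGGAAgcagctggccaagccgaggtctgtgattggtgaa

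Of the 48 members, 20 were bound in OCI-Ly1 rep2 (41.7%), where 19.0% of all protein-coding genes were. In VAL rep2, 22 members were bound (45.8%, against 20.9% of all genes), and in VAL rep1, the library with the fewest passing peaks, 5 were bound (10.4%, against 3.14%). In at least 1 library 25 members were bound (52.1%, against 27.4%), in both lines 17 (35.4%, against 12.6%) and in all 3 libraries 5 (10.4%, against 2.74%). The median best -log10 q of the members was 2.22, 0.183 and 2.68 in OCI-Ly1 rep2, VAL rep1 and VAL rep2, where it was 1.22, 0.183 and 1.64 over all protein-coding genes, with a gene that had no listed peak counted as 0. In VAL rep1 the members' median thus equalled that of all genes, and 10 members had no listed peak there. These shares are descriptions, since genes are not replicates and the design allows no test of one gene group against another.

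**Figure D1:**
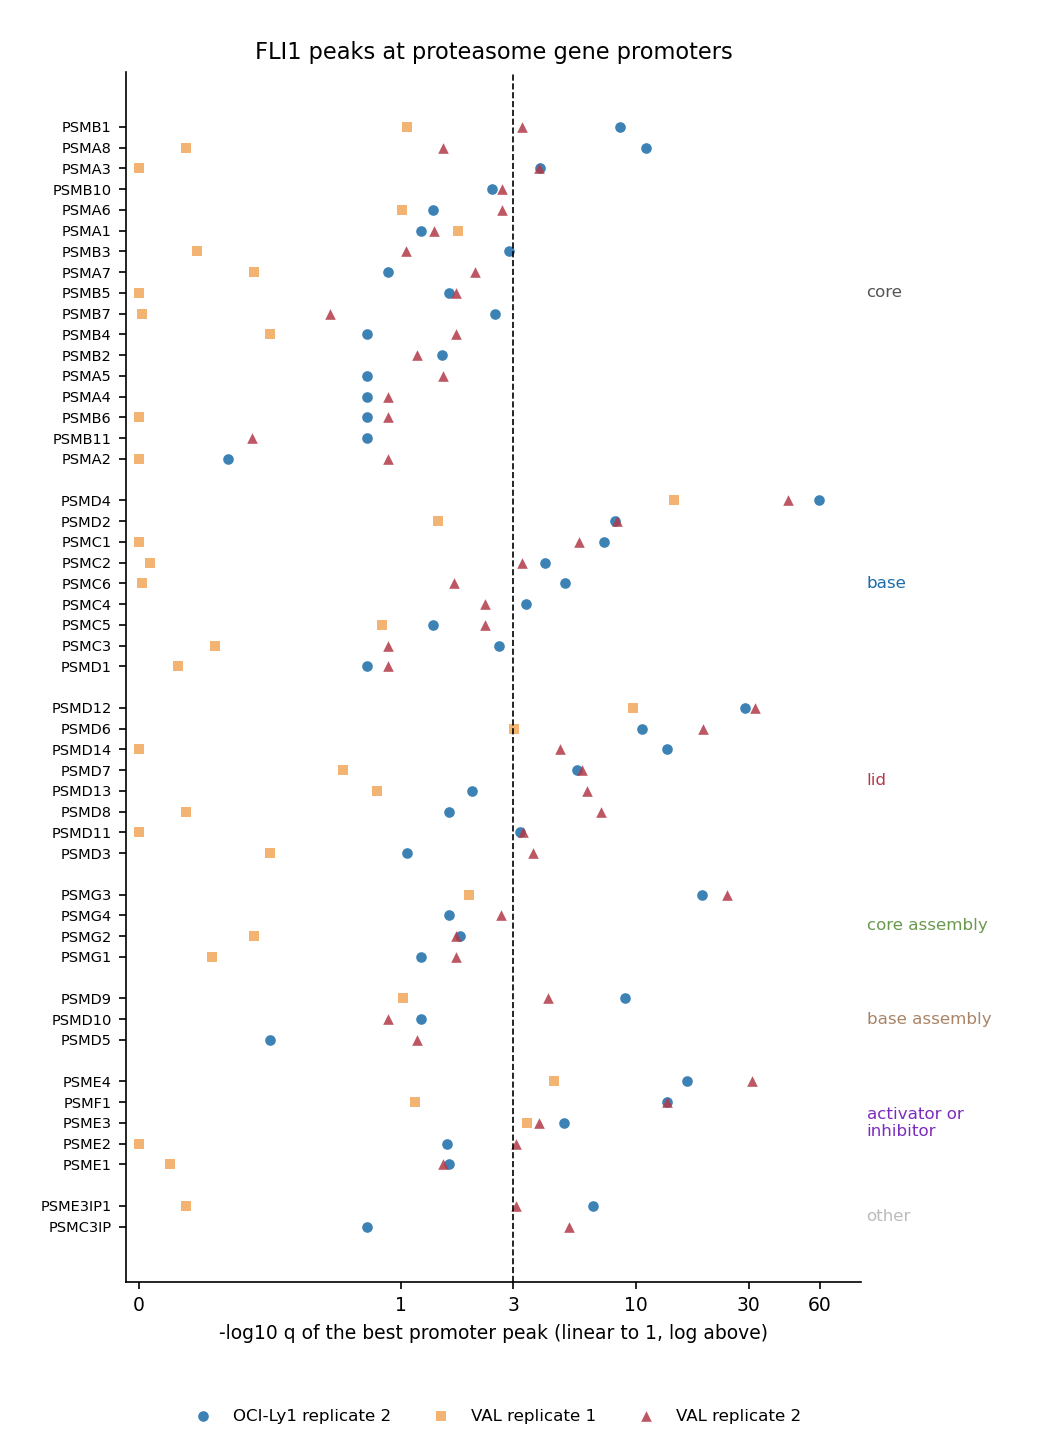
Best -log10 q of a FLI1 peak centred within 3 kb of a TSS (horizontal axis, linear up to 1 and logarithmic above) for each of the 48 members, grouped by place in the proteasome, with 1 mark per library and no mark where no peak was listed. The dashed line marks 3. All 8 lid genes lay to the right of it in VAL rep2, while of the 17 core genes 3 did in OCI-Ly1 rep2, 2 in VAL rep2 and none in VAL rep1.

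Promoter type and the reach of the search differed between the members and other genes. A promoter was called CpG-rich when the 500 bp on either side of the main TSS had a GC share of at least 0.5 and a ratio of observed to predicted CpG of at least 0.6. By this definition 40 of the 48 members were CpG-rich (83.3%, against 64.2% of all protein-coding genes). Within this type, 17, 5 and 20 of the 40 members were bound in OCI-Ly1 rep2, VAL rep1 and VAL rep2, or 42.5%, 12.5% and 50%, where 25.5%, 4.13% and 27.6% of 12918 CpG-rich genes were. The stretch within 3 kb of any TSS had a median of 12246 bp for the members and 12075 bp for all genes, and the members had a median of 8 annotated TSS against 5. The part of the number of TSS in the counts was not tested.

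By place in the particle, larger shares of the base and the lid than of the core were bound. In the core 3 of 17 genes were bound in OCI-Ly1 rep2 (17.6%), none in VAL rep1 and 2 in VAL rep2 (11.8%). In the base 6 of 9 genes were bound in OCI-Ly1 rep2 (66.7%), 1 in VAL rep1 (11.1%) and 4 in VAL rep2 (44.4%). In the lid 5 of 8 genes were bound in OCI-Ly1 rep2 (62.5%), 2 in VAL rep1 (25%) and all 8 in VAL rep2. The core shares, from 17 genes, were below those of all genes in the same libraries (19.0%, 3.14% and 20.9%), only slightly so in OCI-Ly1 rep2. The base and lid shares were above those of all genes. Median -log10 q followed the same order in both larger libraries, with 1.37 in the core, 4.08 in the base and 4.42 in the lid in OCI-Ly1 rep2, and 1.51, 2.27 and 6.01 in VAL rep2. The classes differed in other respects: CpG-rich promoters made up 70.6% of the core, 77.8% of the base genes and all 8 lid genes, and the median reach was 10722 bp in the core, 14725 bp in the base and 17301 bp in the lid. Whether these differences account for those in the counts was not tested.

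**Figure D2:**
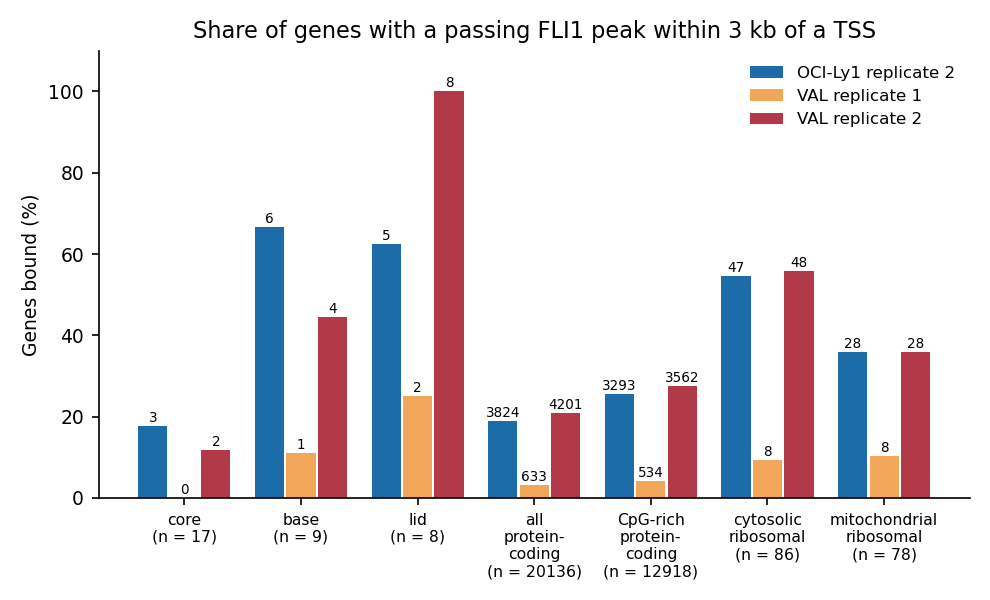
Share of genes bound (vertical axis, percent, starting at 0) in the core, base and lid, in all protein-coding genes, in those with a CpG-rich promoter, and in the cytosolic and mitochondrial ribosomal protein genes, with 1 bar per library and the number of bound genes above it. The core bars (17.6%, 0.0% and 11.8%) are below those of all genes (19.0%, 3.14% and 20.9%), only slightly so in OCI-Ly1 rep2. The base and lid bars are above those of all genes.

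PSMD4, a ubiquitin receptor of the base, had the strongest peak of any member. Its best -log10 q was 59.53 in OCI-Ly1 rep2, 14.47 in VAL rep1 and 44.18 in VAL rep2, far above the threshold in each library. The fold enrichment over the local background, with 1 added to the reads and to the background, was 29.08, 7.36 and 23.07. The reads at the summit numbered 40, 31 and 33. The estimated background there was 0.41 reads in OCI-Ly1 rep2, 3.35 in VAL rep1 and 0.473 in VAL rep2. Counting error alone gave 95% Poisson intervals of 28.58 to 54.47 for 40 reads and 22.72 to 46.34 for 33 reads. These intervals leave out the read totals and the spread between replicates, so they do not compare the libraries. The summits lay 29, 49 and 16 bp upstream of a TSS of PSMD4, which runs on the plus strand of chromosome 1, and those of OCI-Ly1 rep2 and VAL rep2 were 13 bp apart.

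PSMD2, a large scaffold subunit of the base to which ubiquitin receptors bind, had values of 8.10 in OCI-Ly1 rep2, 1.44 in VAL rep1 and 8.32 in VAL rep2. It was bound in the larger libraries, with 13 reads and folds of 7.63 and 7.75, at summits 63 and 40 bp upstream of its TSS. PSMD1, the other large scaffold subunit, reached 0.87, 0.15 and 0.95 and was bound in none.

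Of the 6 ATPase genes, 4 were bound in at least 1 library (66.7%, against 27.4% of all protein-coding genes). PSMC1 had values of 7.31, 0.00 and 5.72 in OCI-Ly1 rep2, VAL rep1 and VAL rep2, and PSMC2 had 4.08, 0.04 and 3.27, so both were bound in the larger libraries only. PSMC4 (3.39) and PSMC6 (4.98) were bound in OCI-Ly1 rep2 and reached 2.27 and 1.69 in VAL rep2. PSMC3 and PSMC5 were bound in none, with best values of 2.62 and 2.27. For PSMC2 the peaks of the larger libraries were not the same site: the OCI-Ly1 summit lay 82 bp downstream of a TSS of PSMC2, and the VAL rep2 summit lay 2932 bp away from it, 90 bp upstream of another TSS of PSMC2 and 6 bp from the TSS of DNAJC2.

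In the lid, PSMD12 had the second strongest peaks of all members by the sum of the 3 values. Its best -log10 q was 28.99 in OCI-Ly1 rep2, 9.64 in VAL rep1 and 31.81 in VAL rep2. All 3 summits lay within 2 bp of a TSS of PSMD12, with 22, 22 and 29 reads and folds of 17.56, 6.88 and 17.47. PSMD6, another scaffold subunit of the lid, had values of 10.55, 3.03 and 19.24 and was bound in all 3 libraries, in VAL rep1 only just. Its folds were 9.22, 4.86 and 13.30 from 12, 12 and 16 reads.

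PSMD14, the deubiquitinase of the lid, had values of 13.48 in OCI-Ly1 rep2, 0.00 in VAL rep1 and 4.76 in VAL rep2. The OCI-Ly1 peak held 14 reads (fold 10.64) and the VAL rep2 peak 8 reads (fold 6.11), with summits 27 and 37 bp upstream of its TSS. PSMD7, which pairs with PSMD14 in the lid, had values of 5.62, 0.78 and 5.87. Both genes were thus bound in the larger libraries and not in VAL rep1, where PSMD14 was at 0.

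The other lid genes had weaker peaks. PSMD11 had values of 3.22, 0.00 and 3.29, just inside the threshold in the larger libraries with 6 reads in each, and counting error gives 6 reads a 95% Poisson interval of 2.2 to 13.06. PSMD8 (7.06), PSMD13 (6.15) and PSMD3 (3.66) were bound in VAL rep2 alone, with 9, 9 and 6 reads, and had 1.61, 2.0 and 1.06 in OCI-Ly1 rep2. The PSMD3 summit lay 552 bp downstream of the nearest TSS of the gene, and the PSMD13 summit was 4 bp from a TSS of PSMD13 and 31 bp from that of SIRT3 on the other strand. These 3 genes make the difference between 5 of 8 and 8 of 8 lid genes, and in VAL rep1 they had 0.50 (PSMD3), 0.91 (PSMD13) and 0.18 (PSMD8).

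The core had 3 of 17 genes bound in at least 1 library (17.6%, against 27.4% of all protein-coding genes). PSMB1, a beta subunit without protease activity of its own, had values of 8.49 in OCI-Ly1 rep2, 1.06 in VAL rep1 and 3.27 in VAL rep2, with 12 reads (fold 8.05) and 6 reads (fold 5.15) at summits 6 bp apart. Its start lies close to that of TBP, and the summits were 38 and 44 bp upstream of the TSS of PSMB1 and 957 and 951 bp from that of TBP. PSMA8, an alpha subunit made mainly in the testis, had values of 10.98, 0.18 and 1.51, so the highest core value came from OCI-Ly1 and was not met in VAL. PSMA3, an alpha subunit, had values of 3.90, 0.00 and 3.87, but its peaks in the larger libraries were 18454 bp apart and so were different sites, the first 35 bp and the second 262 bp upstream of a TSS of PSMA3.

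The other 14 core genes were bound in no library. They included the catalytic subunits PSMB5 (1.61, 0.00 and 1.71 in OCI-Ly1 rep2, VAL rep1 and VAL rep2), PSMB6 (0.87, 0.00 and 0.95) and PSMB7 (2.51, 0.01 and 0.73). PSMB10, the catalytic subunit of the immunoproteasome among the members, had 2.43 and 2.70 in the larger libraries and no listed peak in VAL rep1. PSMB8 and PSMB9, the other immunoproteasome subunits, which lie in the MHC region and are not members, were not bound either, with 1.36 and 1.18 for PSMB8 and 1.61 and 1.69 for PSMB9. PSMB11, the thymus form, had 0.87 and 0.43. The others were PSMA1, PSMA2, PSMA4, PSMA5, PSMA6, PSMA7, PSMB2, PSMB3 and PSMB4, with best values from 0.95 for PSMA2 and PSMA4 to 2.89 for PSMB3. Each of these genes had a listed peak below the threshold in both larger libraries, so no call there does not show that FLI1 was absent.

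Of the assembly factors, 1 of 4 genes for the core and 1 of 3 for the base were bound in at least 1 library. Of all protein-coding genes 27.4% were. PSMG3, a chaperone of the core alpha ring, had values of 19.07 in OCI-Ly1 rep2, 1.95 in VAL rep1 and 24.17 in VAL rep2, from 16 reads (fold 13.25) and 20 reads (fold 15.46) in the larger libraries. The other core chaperones PSMG1, PSMG2 and PSMG4 stayed at 2.66 or lower. PSMD9, a chaperone of the base, had 8.97, 1.02 and 4.23, while the base chaperones PSMD5 and PSMD10 stayed at 1.22 or lower.

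The alternative caps and the inhibitor were bound at 3 of 5 genes in OCI-Ly1 rep2, 2 in VAL rep1 and 4 in VAL rep2. Of all protein-coding genes 19.0%, 3.14% and 20.9% were bound in the same libraries. PSME4, a nuclear activator of the core, had values of 16.46, 4.46 and 30.92, with 17, 16 and 24 reads and folds of 11.90, 5.08 and 18.25. PSMF1, an inhibitor of the core in the test tube, had 13.48, 1.15 and 13.45, with 14 reads in each larger library. PSME3, which encodes the nuclear form of the ring-shaped activator, had 4.95, 3.45 and 3.87 and was bound in all 3 libraries.

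PSME1 and PSME2 encode the interferon-inducible form of that activator. PSME1 was bound in none (1.61, 0.12 and 1.51). PSME2 was bound in VAL rep2 (3.10), with 6 reads at a summit 2537 bp from its nearest TSS and 72 bp from that of EMC9. By the same rule the genes that are no subunits were PSME3IP1, bound in the larger libraries (6.56, 0.18 and 3.10), and PSMC3IP, bound in VAL rep2 (5.18, against 0.87 in OCI-Ly1 rep2). Without them 19, 5 and 20 of 46 genes were bound.

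The calls next to the threshold were as follows. In OCI-Ly1 rep2, PSMB3, PSMB7 and PSMC3 lay between 2.5 and 3, and PSMC4 and PSMD11 between 3 and 3.5. VAL rep1 had PSMD6 and PSME3 between 3 and 3.5 and no member between 2.5 and 3. VAL rep2 had PSMA6, PSMB10 and PSMG4 just below and PSMB1, PSMC2, PSMD11, PSME2 and PSME3IP1 just above the threshold.

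Across the lines, the 17 members bound in both OCI-Ly1 rep2 and VAL rep2 were PSMA3, PSMB1, PSMC1, PSMC2, PSMD2, PSMD4, PSMD6, PSMD7, PSMD9, PSMD11, PSMD12, PSMD14, PSME3, PSME3IP1, PSME4, PSMF1 and PSMG3 (35.4% of members, against 12.5% of all protein-coding genes). Their peaks overlapped by at least 1 bp in 15 of 17 cases (88.2%), and did so for 2344 of 2523 genes over all (92.9%). The median distance between the summits of the 2 libraries was 23 bp for the members and 28 bp for all genes. PSMA8, PSMC4 and PSMC6 were bound in OCI-Ly1 alone, and PSMC3IP, PSMD3, PSMD8, PSMD13 and PSME2 in VAL alone. Calls in 1 line alone were not particular to the members. Of all 20136 protein-coding genes, 5527 were bound in at least 1 library, 3824 in OCI-Ly1 rep2 and 2540 in both lines. With 1 usable OCI-Ly1 library, a difference between the lines cannot be told apart from one between libraries. Spearman's rho of the best -log10 q between these libraries was 0.690 over the 48 members and 0.603 over 19636 genes, where the points share the promoter sequence and the mappable stretch of each gene.

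**Figure D3:**
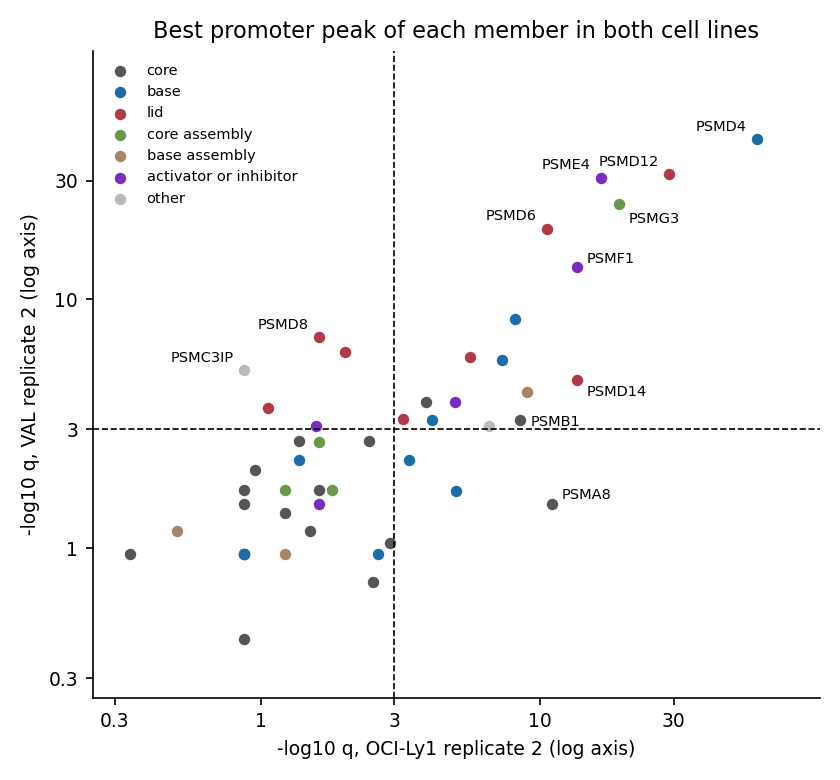
Best -log10 q of each member in OCI-Ly1 rep2 (horizontal, logarithmic axis) and VAL rep2 (vertical, logarithmic axis), coloured by place in the proteasome, with dashed lines at 3. The 17 members bound in both libraries lie at the upper right with PSMD4 outermost, and most core genes lie at the lower left.

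The bound summits sat at the starts of the genes. Their median distance to a TSS of the member was 28 bp in OCI-Ly1 rep2, 49 bp in VAL rep1 and 42 bp in VAL rep2. Within 100 bp of it lay 19 of 20, 4 of 5 and 19 of 22 summits, and 14, 5 and 18 of them were upstream of the TSS. The summit was nearer to the TSS of another coding gene in 1, 2 and 4 cases, which were PSME3 in all 3 libraries, PSME4 in both VAL libraries, and PSMC2 and PSME2 in VAL rep2. PSME3 shares its promoter with BECN1, an autophagy gene, and PSME4 with ACYP2, so their peaks cannot be given to 1 gene of the pair. The TSS of SIRT3 was also close to the bound summit of PSMD13 (31 bp, VAL rep2). That of RSPRY1 was close to the summit of PSME3IP1 (61 bp, OCI-Ly1 rep2).

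**Figure D4:**
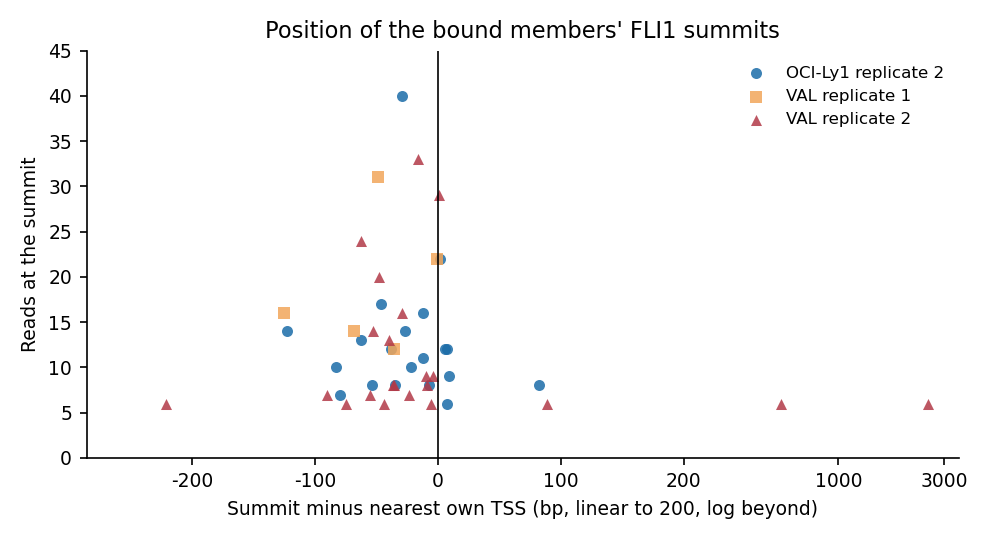
Distance of the best summit from the nearest TSS of the member (horizontal axis in bp, linear near the start and logarithmic farther out, negative upstream) against the reads at the summit (vertical axis) for the bound members of each library. All but 5 of the 47 summits lie within 100 bp, and the highest, at 40, 33 and 31 reads, are those of PSMD4.

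The ETS letters were sought within 50 bp of the best summit of each bound member, on both strands. CCGGAA was found at 14 of 20 summits in OCI-Ly1 rep2 (70.0%), 4 of 5 in VAL rep1 (80.0%) and 14 of 22 in VAL rep2 (63.6%), against 55.6%, 66.7% and 48.9% of the summits of all bound genes. In windows of the same size 250 bp away the members had none, and all bound genes had 6.25%, 6.95% and 5.88%. The shorter GGAA, which CCGGAA contains, was found at every bound summit of the members, against 90%, 93.4% and 88.6% over all bound genes, but also in 10 of 20, 1 of 5 and 9 of 22 of the members' windows 250 bp away. CGGAA, a search added after the PSMD4 site had been seen, was present at 20 of 20, 5 of 5 and 19 of 22 summits, against 71.3%, 77.9% and 64.2% over all bound genes. A match gives letters in a window and does not show a site of FLI1 itself, since other ETS factors have the same letters.

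The same letters were also counted in the promoters of all members, without regard to any peak. From 250 bp before to 50 bp after the main TSS, CCGGAA was present on either strand in 27 of 48 members (56.2%), in 22.8% of 19856 protein-coding genes and in 29.8% of those with a CpG-rich promoter. It was present in 5 of 17 core (29.4%), 6 of 9 base (66.7%) and 7 of 8 lid promoters (87.5%). The core genes with it were PSMA6, PSMA8, PSMB1, PSMB5 and PSMB7, and PSMD3 was the lid gene without it. Of the members with CCGGAA, 17 of 27 were bound in OCI-Ly1 rep2 (63.0%) and 18 of 27 in VAL rep2 (66.7%), and of those without it 3 of 21 (14.3%) and 4 of 21 (19.0%). Over all genes the shares were 43.7% and 43.8% with the letters and 11.9% and 14.3% without. In the core 2 of the 5 genes with the letters were bound in OCI-Ly1 rep2 and 1 in VAL rep2, where in the lid 5 and 7 of 7 were.

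2 other motifs were counted in the same window. The CCAAT box, with the letters CCAAT, was in 43.8% of the members' promoters and 36.0% of all promoters. The core of the antioxidant response element, TGACNNNGC, to which NFE2L1 binds when the proteasome is inhibited, was in 27.1% of the members' and 14.0% of all promoters, with 17.6% in the core, 22.2% in the base and 25% in the lid. CCAAT was in 41.2% of the core (7 of 17), 44.4% of the base (4 of 9) and 62.5% of the lid promoters (5 of 8). Among these 3 classes all 3 motifs had their lowest share in the core and their highest in the lid. For TGACNNNGC this rested on 3 of 17, 2 of 9 and 2 of 8 promoters. In the caps with the inhibitor and in the core assembly genes, CCAAT was in 1 of 5 and 1 of 4 promoters, below the core share. TGACNNNGC was there in 3 of 5, above the lid share, and 1 of 4, equal to it. CCGGAA was there in 3 of 5 and 2 of 4, between the core and lid shares. The bound shares rose from the core to the base and the lid in VAL rep2 and VAL rep1, but in OCI-Ly1 rep2 the base (66.7%) was above the lid (62.5%).

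**Figure D5:**
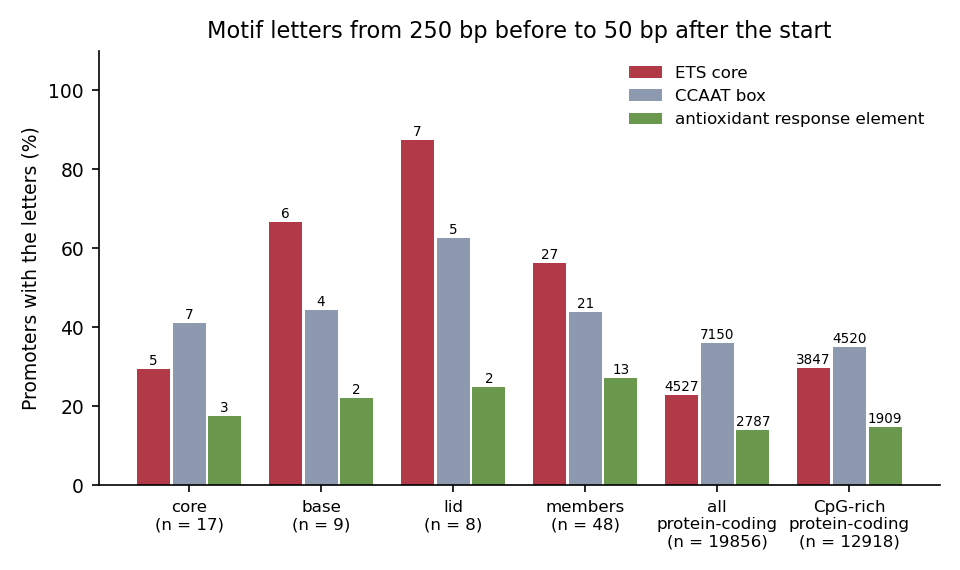
Share of promoters (vertical axis, percent, starting at 0) with the letters of the ETS core, the CCAAT box or the antioxidant response element on either strand between 250 bp before and 50 bp after the main TSS, with the number of genes above each bar. The ETS bar rises from 29.4% in the core to 66.7% in the base and 87.5% in the lid, against 22.8% of all protein-coding genes.

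Of 18 further genes of the proteasome system, 2 were bound in OCI-Ly1 rep2 (11.1%), none in VAL rep1 and 3 in VAL rep2 (16.7%), near the shares of all genes in the same libraries (19.0%, 3.14% and 20.9%). The 14 that were bound in none had best values from 0.43 to 2.84. POMP, which matures the core, had values of 14.04, 2.51 and 20.92 and was bound in both larger libraries. ADRM1, a ubiquitin receptor of the base, was bound in VAL rep2 (4.42) and had 2.43 in OCI-Ly1 rep2. PAAF1, a base chaperone, was bound in OCI-Ly1 rep2 (4.70), and NFE2L1, a transcription factor that raises proteasome genes, in VAL rep2 (3.87). SEM1, the smallest lid subunit, was bound in none (2.24, 0.00 and 0.95), so the lid count of 8 of 8 holds for the lid genes with a PSMD symbol.

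The same rule was applied to the ribosomal protein genes, another family of large complexes. Of 86 cytosolic ribosomal protein genes 47, 8 and 48 were bound (54.7%, 9.3% and 55.8%) in OCI-Ly1 rep2, VAL rep1 and VAL rep2, and of 78 mitochondrial ones 28, 8 and 28 (35.9%, 10.3% and 35.9%). The proteasome genes, at 41.7%, 10.4% and 45.8%, stood between these families in both larger libraries, with the core below and the lid above both of them.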

How the data were processed

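The authors mapped the reads to GRCh37. The paper's methods name bowtie2, SAMtools and HOMER, and the submitters' processing notes name CASAVA 1.4 and BWA. Each deposited list holds 1 library in the 10 columns of a MACS2 peak list. Its caller, control and settings are not given in the sources used here. The deposited fold enrichment was taken as a ratio of the summit pileup to the local background, with 1 added to each. The deposited -log10 p and -log10 q are the caller's p-value and q-value of a summit. The deposited score was not used. Reads at a summit were estimated from fold and p with a Poisson formula assumed for lists of this format. All read counts given here are such estimates. The simulated reads were made with the same formula, so they do not check it against the deposited lists. Scripts were tested on simulated data (pysam 0.24.0, pandas 2.3.3, numpy 2.4.6 and scipy 1.17.1 in python 3.11.15).

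Every member is named. Peak detail is given for the 8 members with the highest summed -log10 q and the best of core, base and lid. Members, classes and lists were chosen with earlier results of these data known. No test was run, since genes are not replicates. Intervals cover counting error only. Alternatives covered the threshold, the TSS definition and distance, the libraries, the overlap and the motif. 1 gene was left out of the counts of further proteasome genes and is not reported here. The input DNA was not analysed here.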

Additional observations from a re-analysis of the deposited data

How the results depend on the processing

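Of 130 alternative values, 110 stayed within 1.5 times the reported one and 20 moved. At a threshold of 5 the bound members fell to 2 in VAL rep1 and 12 in VAL rep2, those in both lines to 9, those in all 3 libraries to 2, the base genes of OCI-Ly1 rep2 to 3, the lid genes of VAL rep2 to 5 and the core genes of VAL rep2 to 0. At 2 the core genes rose to 6 in OCI-Ly1 rep2 and 5 in VAL rep2. Giving each peak, by its centre, to the gene with the closest TSS left 3 bound members in VAL rep1 and 3 in all 3 libraries. It left 7 lid genes bound in VAL rep2, where PSMD13 was lost. The top 5000 peaks of each library gave 8 members in VAL rep1 and 1 core gene in VAL rep2, and the TSS of protein-coding transcripts alone gave 1 core gene there. Leaving out libraries gave 20 to 25 members bound in at least 1 library, 5 to 17 in both lines (5 without VAL rep2) and 5 to 17 in every library used (17 without VAL rep1). The count in both lines could not be had without OCI-Ly1 rep2. CCGGAAGT in place of CCGGAA was at 7, 1 and 7 summits in OCI-Ly1 rep2, VAL rep1 and VAL rep2, and GGAA at 22 in VAL rep2. The search for CGGAA was chosen after seeing the data. No paired analysis was possible because the lines received no treatment and no test was run.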
